A study of Mus musculus with 12 samples.

Results

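A set of 9 genes for secreted or membrane-bound effector molecules of cytotoxic lymphocytes was followed in tumour-infiltrating NK cells and CD8 T cells of mice with and without functional TYK2. The members were chosen by name as the effector cytokines Ifng, Tnf and Csf2, the chemokines Xcl1, Ccl3, Ccl4 and Ccl5, and the death ligands Fasl and Tnfsf10. All 9 were found among the 54232 genes of the count table, and all 9 were among the 13279 genes with a mean normalised count of at least 10, which were the genes tested. The cells came from transplants of MC38, a mouse colon adenocarcinoma line, injected under the skin of both flanks and removed after 8 to 10 days. From the CD45-enriched tumour suspension, 300 cells per library were sorted as NK cells (NK1.1+ and CD45+ without CD3ε) or as CD8 T cells (CD8a+ and CD3ε+ among CD45+ cells).

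The hosts were C57BL/6N wild-type mice (WT), mice lacking the TYK2 protein (Tyk2-/-, labelled TYK2KO and here KO) and mice whose TYK2 carries a point mutation that removes its kinase activity (labelled TYK2KE and here KE). Each cell type and genotype gave 2 libraries, so 6 groups and 12 libraries in all, and none of the mice received a treatment other than the tumour. Both Tyk2 alleles were present in every cell of the host while the MC38 cells were injected unaltered, so an effect inside the sorted lymphocyte cannot be told apart from one that passes through other host cells. Which animals and tumours stood behind the replicates is not given in the sources used here, so p-values measure the spread between these libraries only, which may be technical.

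TYK2 is a Janus kinase that sits on the receptors of type I interferons, IL-12 and IL-23 and passes their signal to STAT transcription factors. Interferon-γ, encoded by Ifng, activates macrophages and raises antigen presentation, TNF drives inflammation and can kill target cells, and GM-CSF, encoded by Csf2, acts on myeloid cells. XCL1 attracts the cross-presenting dendritic cells that carry XCR1, whereas CCL3, CCL4 and CCL5 attract T cells, NK cells and myeloid cells. FASL and TRAIL, encoded by Fasl and Tnfsf10, trigger apoptosis in cells that display FAS or, for mouse TRAIL, the receptor encoded by Tnfrsf10b. NK cells and activated CD8 T cells are well known sources of most of these molecules.

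The upstream sequences of 3 members are shown because their libraries separated by genotype, Ifng and Xcl1 in CD8 T cells and Tnfsf10 in NK cells. They come from RefSeq promoter windows of GRCm38.p6, run 5′ to 3′ on the strand of the gene and end at the base before the annotated gene start. RefSeq windows were found for 7 of the 9 members and not for Ccl4 and Ccl5. Capitals mark, in this order, a STAT motif (TTCNNNGAA) in Ifng, the bases that also lie in an exon of the opposite-strand gene Gm20743 in Xcl1, and an NFAT core motif (GGAAA, here on the minus strand of the window) in Tnfsf10.
Ifng, chr10:118440796-118441045, plus strand: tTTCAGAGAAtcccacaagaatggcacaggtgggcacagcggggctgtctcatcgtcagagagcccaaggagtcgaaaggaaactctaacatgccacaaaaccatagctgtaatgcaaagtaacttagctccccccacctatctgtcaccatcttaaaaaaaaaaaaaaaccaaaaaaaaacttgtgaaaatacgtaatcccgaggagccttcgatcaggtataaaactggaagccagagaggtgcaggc
Xcl1, chr1:164935528-164935772, minus strand: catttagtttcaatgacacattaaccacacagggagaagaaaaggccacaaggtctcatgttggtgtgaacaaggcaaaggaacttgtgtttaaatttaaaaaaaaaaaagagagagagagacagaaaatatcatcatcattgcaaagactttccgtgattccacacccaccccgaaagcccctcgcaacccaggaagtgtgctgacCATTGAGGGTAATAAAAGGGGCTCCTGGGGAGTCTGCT
Tnfsf10, chr3:27316827-27317027, plus strand: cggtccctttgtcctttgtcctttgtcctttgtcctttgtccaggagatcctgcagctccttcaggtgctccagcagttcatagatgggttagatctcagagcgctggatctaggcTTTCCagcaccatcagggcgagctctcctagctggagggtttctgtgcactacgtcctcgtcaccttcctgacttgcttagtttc

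Motifs were searched on both strands of the 250 bases before the RefSeq start. The STAT motif TTCNNNGAA was found in the window of Ifng, 249 bases before the start, and in 7.02% of all 32851 windows. GAAANNGAA, the core of the interferon-stimulated response element, was found in Csf2 (199 bases before the start) and Ccl3 (39 bases before the start), and in 7.13% of all windows. The NF-kB-like motif GGNNTTTCC (4.93% of all windows) and the AP-1 motif TGANTCA (6.75%) were found in none of the 7 windows, which says only that these letters are not there. GGAAA, the NFAT core, was found in all 7 windows, but 55.6% of all windows hold these few letters. In both Csf2 and Ccl3, GAAANNGAA overlaps a GGAAA of the same strand by 4 of the 5 letters.

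The libraries held 10378761 to 14732882 counts in all, and 3 counts, the most that a count of 0 allows at this depth, stand for 0.218 to 0.276 CPM (counts divided by the TMM-scaled library size and put on a common scale). Tyk2 itself was read at similar levels under every label, from 46.7 to 119 CPM, with 56.3 and 105 CPM in NK KO and 61.9 and 73.8 CPM in CD8 KO. A count for the whole gene cannot tell which exons were read, so the labels could not be checked from Tyk2, and KO and KE in what follows stand for the libraries so labelled. The defining markers fitted the gates. The summed level of 6 T cell markers (Cd3e, Cd3d, Cd3g, Cd8a, Cd8b1, Trac) was 10781 to 15164 CPM in the CD8 libraries and 65.7 to 340.3 CPM in the NK libraries, and that of 6 NK markers was 4476 to 8492 CPM in NK and 1115 to 1727 CPM in CD8.

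Myeloid transcripts set 3 NK libraries apart. The 12 myeloid markers (among them Apoe, Lyz2, Csf1r and C1qa) summed to 16357 and 13790 CPM in NK WT and to 7195 CPM in NK KO replicate 1, with 12 of 12 detected in each. The other 9 libraries held 24.2 to 590.1 CPM, with 9 to 12 of the 12 markers detected. This signal was thus higher in both NK WT libraries than in all 4 mutant NK libraries, and its part in the NK results was not tested. The 6 ILC1 markers, all detected in every NK library, summed to 182 to 203 CPM in NK WT and 349.6 to 483 CPM in the mutants. The same list summed to 2597 to 4537 CPM in the CD8 libraries, so by itself it cannot show ILC1 cells. B cell, neutrophil and tumour epithelium markers each stayed at or below 32.5 CPM and CD4 T cell markers at or below 45.9 CPM. In a bulk library fewer cells of a type and less RNA per cell cannot be told apart.

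**Figure D1:**
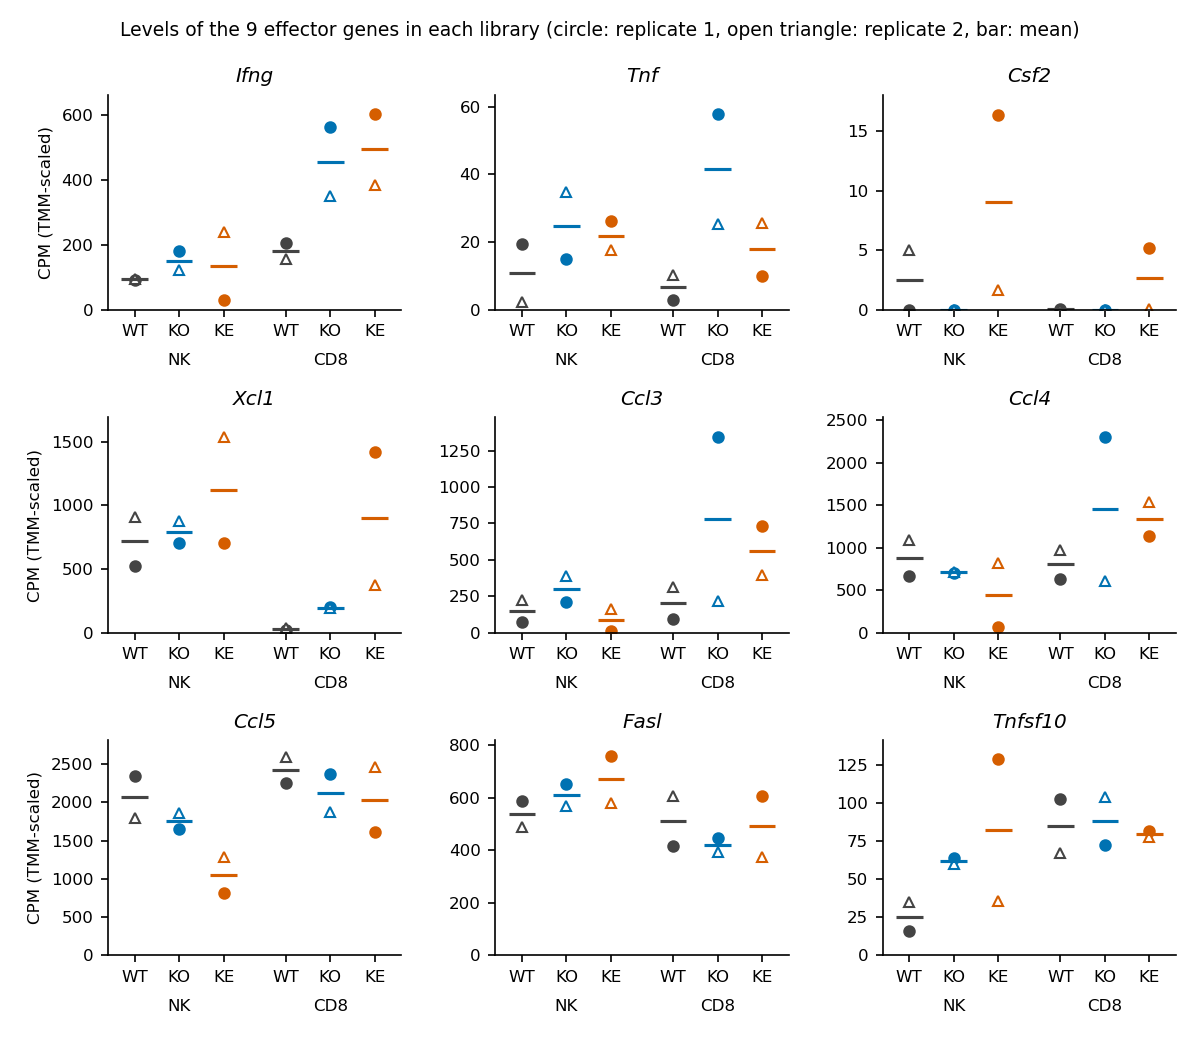
Level of each of the 9 effector genes (CPM, TMM-scaled, linear axis from 0) in the 12 libraries by cell type and genotype, with replicate 1 as a filled circle, replicate 2 as an open triangle and the mean of 2 as a bar. Xcl1 lies at 21.3 and 32.7 CPM in CD8 WT and at 193 to 1422 CPM in the mutant CD8 libraries, whereas Fasl stays between 376 and 760.3 CPM in every library.

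Together the members took 0.268% to 0.724% of all counts of a library. Per kilobase of exon, Ccl5 had the highest mean level in both cell types (3062 CPM per kb in NK and 4123 in CD8), followed by Xcl1 in NK (1675) and Ccl4 in CD8 (1817). At the other end, Csf2 reached 4.80 CPM per kb in NK and 1.12 in CD8, below Tnfsf10 (10.8 and 16) and Tnf (11.7 and 13.4). Members also differed in how far single libraries spread. Fasl varied 1.56-fold over the 6 NK libraries and 1.62-fold over the 6 CD8 libraries, and Ccl5 varied 2.86-fold and 1.60-fold. Tnf varied 15.5-fold and 19.5-fold, Ccl3 34.4-fold and 14.4-fold, and Xcl1 2.93-fold and 66.8-fold. These ranges span the genotypes, so they are not the spread that the tests used.

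Ifng (ENSMUSG00000055170, chr10:118441046-118445892, plus strand) was read at 93.3 and 96.4 CPM in NK WT, 180 and 124 CPM in NK KO, and 29.9 and 240.3 CPM in NK KE. CD8 T cells held 205 and 158 CPM in WT, 564 and 351 CPM in KO, and 604 and 385 CPM in KE. All 4 mutant CD8 libraries thus lay above both WT libraries. In NK cells both KO libraries lay above both WT libraries, while the KE libraries lay on either side of all other NK libraries. How many genes separate 2 libraries from 2 in this way was not counted, here or below, so such separations are description only. The group means were 181 ± 33.7 CPM in CD8 WT, 457 ± 150 in CD8 KO and 495 ± 155 in CD8 KE (SD, n = 2), yet neither mutant differed from WT beyond the spread (log2 fold changes of 1.33 and 1.45, FDR 0.887 and 0.792, edgeR quasi-likelihood test). In the order of levels, CD8 KE, CD8 KO, CD8 WT, NK KO, NK KE and NK WT, the step from CD8 KO to CD8 WT was the one between neighbours whose libraries did not overlap. A gene of the same strand, Gm49751, shares 20.6% of the exon bases of Ifng, and the sources used here do not give how reads of shared bases were assigned.

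Tnf (ENSMUSG00000024401, chr17:35199381-35202007, minus strand) was scarce and uneven. NK libraries held 19.3 and 2.24 CPM in WT, 15.0 and 34.7 CPM in KO, and 26.2 and 17.6 CPM in KE. Their CD8 counterparts held 2.97 and 10.3 CPM in WT, 57.8 and 25.3 CPM in KO, and 10.0 and 25.7 CPM in KE. Both CD8 KO libraries lay above both CD8 WT libraries, whereas the other pairs of genotypes within a cell type overlapped, as did every pair of neighbouring groups in the order of levels. The largest fitted difference was CD8 KO against WT, with a log2 fold change of 2.65 ± 1.35 (SE) and a 95% interval of -0.36 to 5.65 (FDR 0.887, edgeR).

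Csf2 (ENSMUSG00000018916, chr11:54247271-54249667, minus strand) was near the floor in most libraries. It had 0 and 65 counts in NK WT, 0 and 0 in NK KO, and 178 and 22 in NK KE. Counts were 1 and 0 in CD8 WT, 0 and 0 in CD8 KO, and 63 and 1 in CD8 KE. Single libraries carried nearly all of the signal, with 178 of the counts in NK KE replicate 1. Against the floor of 3 counts per library, the mean of NK KE was at least 39.5-fold higher than NK KO, or at least 7.22-fold from NK KE replicate 2 alone. No comparison of Csf2 was called by edgeR or DESeq2, and an antisense gene, Gm12223, overlaps 12% of the exon bases.

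Xcl1 (ENSMUSG00000026573, chr1:164931644-164935527, minus strand) showed the largest fitted differences of the 8 members other than Csf2. CD8 WT held 21.3 and 32.7 CPM (287 and 450 counts). CD8 KO held 198 and 193 CPM, and CD8 KE 1422 and 375 CPM. The 3 CD8 groups therefore did not overlap and were ordered WT, KO, KE. NK libraries were high under every label, with 524 and 911 CPM in WT, 707 and 877 CPM in KO, and 702 and 1535 CPM in KE, and these overlapped with CD8 KE. Xcl1 rose in CD8 KE against WT by 5.06 ± 0.66 on the log2 scale (SE, 95% interval 3.60 to 6.51, 33.3-fold, FDR 0.0347, edgeR), the one genotype difference among the members that passed the threshold. For CD8 KO against WT the log2 fold change was 2.86 ± 0.59 (95% interval 1.54 to 4.17, FDR 0.281, edgeR), which did not pass, and KO against KE gave -2.20 ± 0.58 (FDR 1, edgeR), or -0.94 without CD8 KE replicate 1.

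The KE call of Xcl1 was close to the threshold. Leaving out 1 library kept the log2 fold change between 3.80 and 5.72, but the FDR ranged from 0.0054 to 0.334 and was above 0.05 without either NK WT, either NK KO, either CD8 WT or either CD8 KO library. It was 0.285 in a fit to the CD8 libraries alone and 0.139 without the 3 NK libraries with high myeloid markers, where the log2 fold change was 5.02 in this alternative chosen after seeing the data. In these fits 0 of 12669 and 0 of 12971 genes were called. With DESeq2 the KO difference of Xcl1 passed as well (log2 fold change 2.82, adjusted p = 2.98e-05). Myeloid markers in the CD8 libraries summed to 221 and 231 CPM under WT, to 52.6 and 215 CPM under KO and to 292 and 590.1 CPM under KE. Replicate 1 of CD8 KE was the highest CD8 library for these markers and for Xcl1. The CD4 T cell markers Cd4 and Foxp3 summed to 15.3 and 45.9 CPM in CD8 WT, all of it from Foxp3, and were at 0 in all 4 mutant CD8 libraries. The part of these markers in the Xcl1 difference was not tested.

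Part of Xcl1 overlaps Gm20743 (ENSMUSG00000104117, chr1:164863133-164936775, plus strand), a noncoding gene on the opposite strand. One of its exons (chr1:164933929-164935565) covers the first exon of Xcl1, which is 98 of its 523 exon bases. The same exon covers 1501 bases of Xcl1 intron, and 38 bases upstream of Xcl1 that are shown in capitals above. The labels call the libraries stranded, but whether the counting used strand is not given in the sources used here. Without strand, reads of the shared exon bases cannot be assigned to either gene. Reads of Xcl1 intron inside that exon of Gm20743 would then count for Gm20743. Gm20743 had 4 and 2 counts in CD8 WT, 135 and 120 in CD8 KO, and 508 and 318 in CD8 KE, and 808 to 2486 counts in the NK libraries. It rose in CD8 KO (log2 fold change 5.46, FDR 0.0196, edgeR) and in CD8 KE (7.15, FDR 0.0094, edgeR), so both overlapping genes followed the same order of groups in CD8 T cells. In the fit to the CD8 libraries alone neither rise of Gm20743 was called, as 0 of 12669 genes were.

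**Figure D2:**
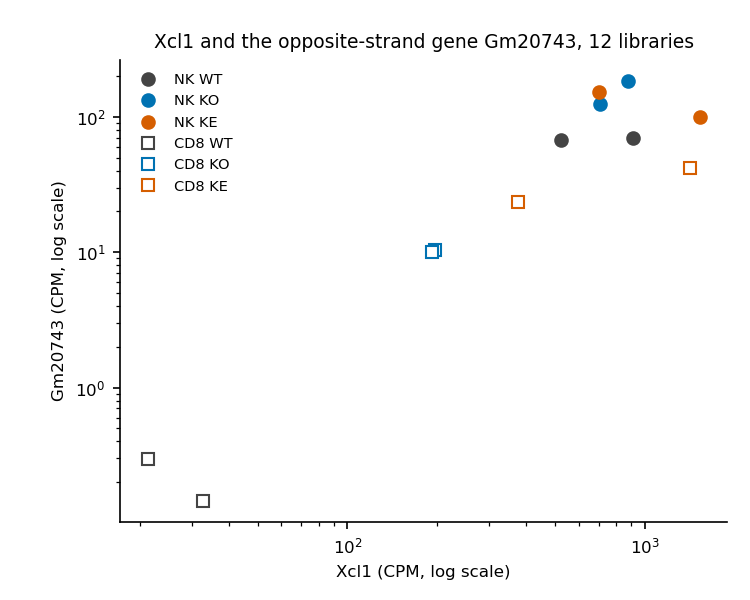
Level of Gm20743 against level of Xcl1 (both CPM, log scales) in the 12 libraries, with NK libraries as filled circles, CD8 libraries as open squares and genotypes by colour. CD8 WT sits at the lower left at 0.145 and 0.297 CPM of Gm20743, CD8 KO at 9.96 and 10.3 CPM, CD8 KE at 23.3 and 42.0 CPM, and the 6 NK libraries at 67.6 to 184 CPM.

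Ccl3, Ccl4 and Ccl5 lie in 1 cluster on chromosome 11, with 117326 bases between Ccl5 and Ccl3 and 13229 bases between Ccl3 and Ccl4. Ccl3 (ENSMUSG00000000982, chr11:83647844-83649355, minus strand) was read at 75.9 and 223 CPM in NK WT, 210 and 387 CPM in NK KO, and 11.2 and 161 CPM in NK KE. In CD8 T cells it was at 93.1 and 314 CPM in WT, 1341 and 216 CPM in KO, and 730.3 and 393 CPM in KE. Both NK KO libraries lay above both NK KE libraries, and both CD8 KE libraries above both CD8 WT libraries, without passing the test (log2 fold change 1.46 for CD8 KE, FDR 0.887, edgeR). The other pairs of genotypes within a cell type overlapped.

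Ccl4 (ENSMUSG00000018930, chr11:83662584-83664683, plus strand) is the neighbour of Ccl3 in this cluster. NK libraries held 665 and 1085 CPM in WT, 706 and 713 CPM in KO, and 62.0 and 815 CPM in KE. CD8 libraries held 628 and 978 CPM in WT, 2302 and 603 CPM in KO, and 1140 and 1544 CPM in KE, where both libraries lay above both CD8 WT libraries. NK KE replicate 1 was the lowest of the 12 libraries for both genes and for Ifng, and CD8 KO replicate 1 was the highest for both chemokines. No comparison of Ccl4 had an unadjusted p under 0.05, and its log2 fold changes against WT ran from -1.0 in NK KE to 0.85 in CD8 KO.

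Ccl5 (ENSMUSG00000035042, chr11:83525778-83530518, minus strand) was the steadiest of the chemokines. CD8 T cells held 2251 and 2591 CPM in WT, 2375 and 1870 CPM in KO, and 1616 and 2458 CPM in KE, which overlapped. NK cells held 2348 and 1799 CPM in WT, 1652 and 1868 CPM in KO, and 822 and 1284 CPM in KE. Both NK KE libraries lay below all other libraries. The log2 fold change of NK KE against WT was -0.98 ± 0.26 (95% interval -1.56 to -0.39, FDR 0.483, edgeR), and that of NK KO against KE was 0.74 ± 0.26 (FDR 1, edgeR), or 0.46 without NK KE replicate 1 and 1.08 without NK KE replicate 2. Neither passed the threshold in edgeR, whereas DESeq2 gave -1.0 with an adjusted p of 0.0136 for NK KE against WT. Without NK KE replicate 1 the difference from WT was -0.69. The myeloid markers were at 13790 to 16357 CPM in NK WT and 55.8 to 401 CPM in NK KE, and, with the NK, ILC1 and T cell markers given for Tnfsf10, their part in this difference was not tested.

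Fasl (ENSMUSG00000000817, chr1:161780689-161788495, minus strand) was nearly level. It was read at 589 and 487 CPM in NK WT, 652 and 569 CPM in NK KO, and 760.3 and 582 CPM in NK KE. The CD8 libraries held 416 and 608 CPM in WT, 447 and 392 CPM in KO, and 608 and 376 CPM in KE. All groups of a cell type overlapped. Its log2 fold changes against WT were 0.18 (95% interval -0.43 to 0.80) in NK KO, 0.32 (-0.30 to 0.94) in NK KE, -0.29 (-0.90 to 0.33) in CD8 KO and -0.06 (-0.67 to 0.56) in CD8 KE. The intervals thus held no difference from WT of as much as 1 on the log2 scale.

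Tnfsf10 (ENSMUSG00000039304, chr3:27317028-27342427, plus strand) was read at 16 and 34.9 CPM in NK WT, 63.8 and 59.9 CPM in NK KO, and 129 and 36.1 CPM in NK KE. All 4 mutant NK libraries lay above both WT libraries, although NK KE replicate 2 exceeded the higher WT library by little. CD8 T cells held 103 and 67.0 CPM in WT, 72.3 and 104 CPM in KO, and 81.6 and 77.6 CPM in KE, with no order by genotype. Log2 fold changes were 1.28 ± 0.63 in NK KO (FDR 0.766, edgeR) and 1.70 ± 0.64 in NK KE (95% interval 0.28 to 3.12, FDR 0.767, edgeR), and neither passed. Without NK KE replicate 1 the KE difference was 0.50 (FDR 1, edgeR). The marker sums of the NK libraries also differed between genotypes. The sum of the NK markers was 4476 and 5635 CPM in WT, 7955 and 6132 CPM in KO and 8492 and 7350 CPM in KE. The myeloid sum was 16357 and 13790 CPM in WT, 7195 and 24.2 CPM in KO and 55.8 and 401 CPM in KE. The ILC1 sum was 203 and 182 CPM in WT, 379 and 429 CPM in KO and 349.6 and 483 CPM in KE. The T cell sum was 65.7 and 112 CPM in WT, 89.3 and 319 CPM in KO and 225 and 340.3 CPM in KE. The NK and ILC1 sums lay above both WT libraries in all 4 mutants, and the NK sum, like Tnfsf10, was highest in NK KE replicate 1. The NK sum put the NK libraries in the order of Tnfsf10, except that NK KE replicate 2 and NK KO replicate 2 changed places. The part of these markers in the difference was not tested.

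Counted over the 9 members, 2 of 9 had all 4 mutant CD8 libraries above both WT libraries (Ifng and Xcl1), against 6.79% of all genes tested, and 0 of 9 had all 4 below, against 7.49%. In NK cells 1 of 9 lay above (Tnfsf10), against 7.08%, and 0 of 9 below, against 10.8%. With edgeR, 0 of 9 members were called (FDR under 0.05 with a log2 fold change of 1 or more in size) in NK KO against WT, NK KE against WT and NK KO against KE, where 0%, 0% and 0% of all genes were called. At an unadjusted p under 0.05 these comparisons held 0, 2 and 1 members, beside 6.3%, 6.01% and 3.8% of all genes. DESeq2 called 0, 1 (Ccl5) and 0 members, beside 2.67%, 2.83% and 1.5% of all genes. In CD8 T cells, 0 of 9 members were called in KO against WT (0.0527% of all genes), 1 in KE against WT (0.0828%) and 0 in KO against KE (0%). Xcl1 was the member with an unadjusted p under 0.05 in each of these 3 comparisons, where 4.82%, 5.56% and 3.62% of all genes had one, and DESeq2 called it in all 3, beside 1.67%, 2.42% and 1.15% of all genes.

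As a group, the 8 members other than Csf2 had a median log2 fold change of 1.09 in CD8 KO and 1.08 in CD8 KE, beside medians of 0 over all genes. Of these, 6 were positive in KO and 5 in KE. For NK cells the medians were 0.43 in KO and 0.42 in KE, beside -0.01 and 0 over all genes. These counts share their WT libraries between KO and KE. Csf2 is left out because its fitted values rest on counts of 0.

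**Figure D3:**
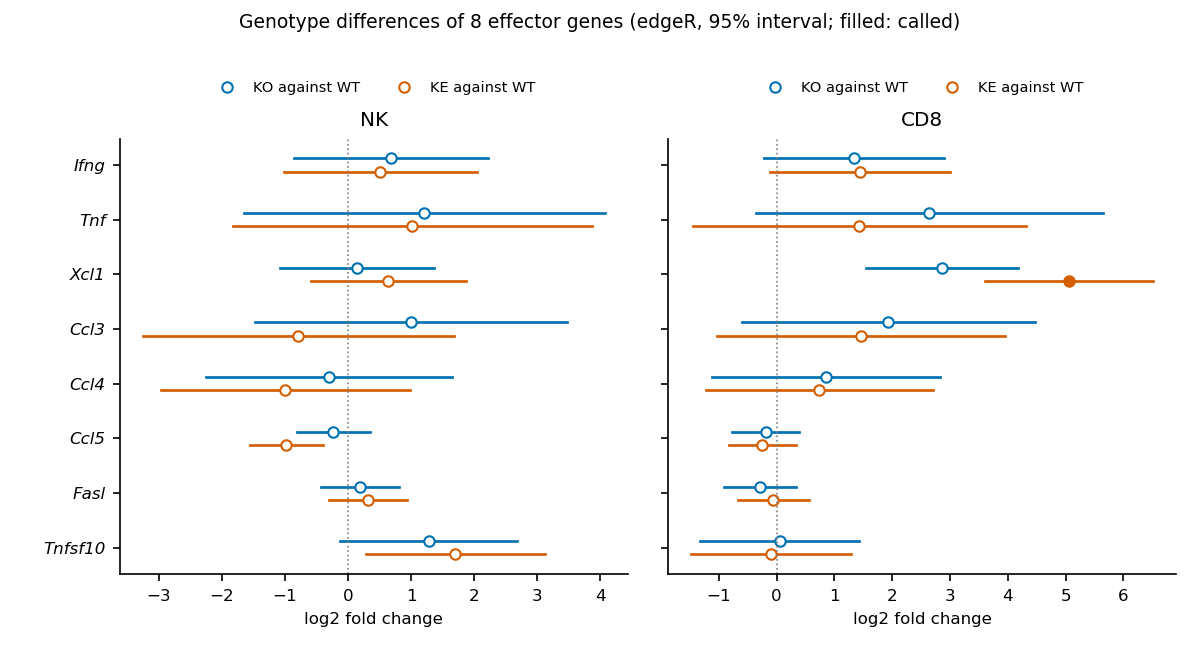
Log2 fold change against WT (points) with its 95% interval (lines) of 8 members in NK cells and CD8 T cells, from edgeR, for KO and KE, with a filled point where a difference was called. The filled point is Xcl1 in CD8 KE at 5.06, and the narrowest intervals are those of Fasl and Ccl5.

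An interaction term, the NK effect minus the CD8 effect, tested whether the cell types responded differently to genotype. For Xcl1 it was -2.71 ± 0.80 in KO (FDR 0.896, edgeR) and -4.42 ± 0.82 in KE (95% interval -6.23 to -2.61, FDR 0.315, edgeR). Neither was called, so that 0 of 9 members were called in KO (0.00753% of all genes) and 0 of 9 in KE (0%), and Xcl1 was the member with an unadjusted p under 0.05 in both (5.29% and 6.19% of all genes). DESeq2 called Xcl1 in both, beside 1.39% and 1.98% of all genes. The other members had interactions between -2.25 (Ccl3) and 1.79 (Tnfsf10) in KE, leaving out Csf2. That of Xcl1 in KE was -3.16 without CD8 KE replicate 1 and -5.08 without CD8 KE replicate 2.

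Between the cell types, Xcl1 was higher in NK cells and the other differences did not pass. Averaged over genotypes, Xcl1 was 2.36 ± 0.33 higher in NK cells on the log2 scale (95% interval 1.61 to 3.10, 5.12-fold, FDR 0.0025, edgeR), and this stayed called without any one library. Ifng was lower in NK cells by -1.47 ± 0.41 (FDR 0.0694), Ccl3 by -1.51 ± 0.65 (FDR 0.232) and Ccl5 by -0.48 ± 0.15 (FDR 0.104), all in edgeR and with an unadjusted p under 0.05. That of Ccl3 was -0.89 without CD8 KO replicate 1 and -2.49 without NK KE replicate 2. For the rest, log2 differences were -0.84 ± 0.51 in Ccl4 (FDR 0.442), -0.73 ± 0.36 in Tnfsf10 (FDR 0.315), 0.35 ± 0.16 in Fasl (FDR 0.265) and 0.08 ± 0.73 in Tnf (FDR 1). Without NK KE replicate 2 the difference of Ccl4 was -1.79 and called (FDR 0.0234, edgeR), and without CD8 KO replicate 1 it was -0.42. That of Tnfsf10 was -1.13 without NK KE replicate 1. Of the 9 members 1 was called, beside 4.47% of all genes, and 4 had an unadjusted p under 0.05, beside 19.3%. No member had all 6 NK libraries above all 6 CD8 libraries (2.03% of all genes) or all 6 below (2.83%).

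By genotype, the cell type difference of Xcl1 within WT was 4.73 ± 0.65 (FDR 0.0061, edgeR, and 0.0902 and 0.0579 without CD8 WT replicate 1 and 2), within KO 2.02 ± 0.57 (FDR 0.205, edgeR) and within KE 0.32 (95% interval -0.91 to 1.54, FDR 0.961, edgeR). Leaving out the 3 NK libraries with high myeloid markers, and with them WT, moved the mean difference to 1.24 (FDR 0.243). Ifng differed most within KE (-1.87 ± 0.71, FDR 0.409, edgeR) and within KO (-1.59 ± 0.71, FDR 0.512, edgeR). Without NK KE replicate 2 the difference within KE was -4.03 and called (FDR 0.0142, edgeR), and without NK KE replicate 1 it was -1.04. In the fit without NK KE replicate 2 the mean difference of Ifng was -2.19 (FDR 0.0010), and without NK KE replicate 1 it was -1.19 (FDR 0.0188), so that the call was made when either was left out.

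Another 3 differences within a genotype had an unadjusted p under 0.05 and did not pass in edgeR across all genes. Tnfsf10 was at -1.74 ± 0.64 in WT (FDR 0.382, or -2.42 without NK WT replicate 2), Ccl3 at -2.70 ± 1.17 in KE (FDR 0.495) and Ccl5 at -0.95 ± 0.26 in KE (FDR 0.188). Without NK KE replicate 1 that of Ccl3 was -1.80, and without NK KE replicate 2 it was -5.62. Within WT 1 of 9 members was called (0.776% of all genes), within KO 0 (0.904%) and within KE 0 (0.7%). At an unadjusted p under 0.05 there were 2 in WT (10.2% of all genes), 2 in KO (9.68%) and 3 in KE (9.58%), and DESeq2 called 1, 1 and 0, beside 6.13%, 5.94% and 5.76% of all genes.

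**Figure D4:**
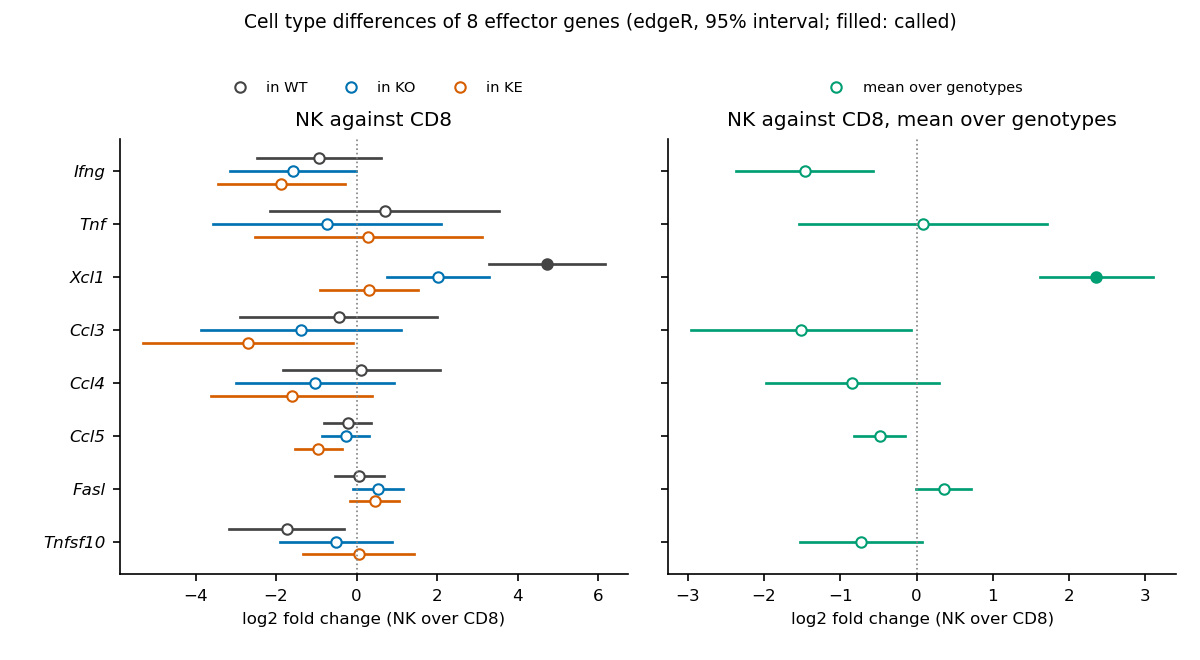
Log2 fold change of NK over CD8 (points) with its 95% interval (lines) of 8 members, within each genotype on the left and averaged over genotypes on the right, from edgeR, with filled points where called. Xcl1 goes from 4.73 in WT through 2.02 in KO to 0.32 in KE, and its mean of 2.36 is the filled point on the right.

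Within a cell type the members did not move as 1 block. After centring each gene within NK and within CD8 libraries, Ccl3 and Ccl4 had a Pearson r of 0.89 over the 12 libraries, Ifng and Ccl3 0.79, Ifng and Ccl4 0.75, and Ccl4 and Ccl5 0.71. Without NK KE replicate 1, where all 4 were low, these values were 0.76, 0.58, 0.42 and 0.13 over 11 libraries. The link of Ccl5 to Ccl4 thus rested on that library. Other pairs moved as well, Ifng and Xcl1 from 0.61 to 0.80 and Ifng and Ccl5 from 0.20 to -0.68. Fasl had values from -0.43 (Ccl5) to 0.34 (Csf2) with the other members. Tnfsf10 and Ccl5 had an r of -0.74, or -0.45 without NK KE replicate 1. These values describe shared libraries and include genotype differences.

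**Figure D5:**
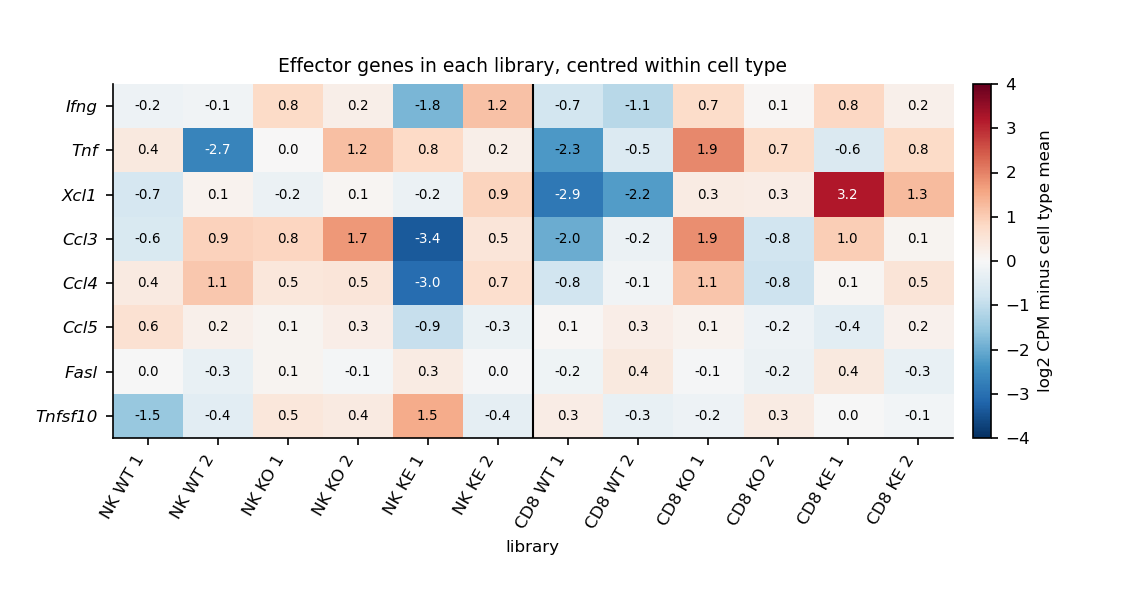
Log2 CPM of 8 members in each of the 12 libraries after subtracting the mean of the gene over the 6 libraries of that cell type (colour and printed value). NK KE replicate 1 is lowest for Ifng, Ccl3, Ccl4 and Ccl5 among the NK libraries, at -1.8, -3.4, -3.0 and -0.9, and highest for Tnfsf10 at 1.5.

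Genes most like each member by this measure, over all genes tested and 12 libraries, were as follows. Ifng was close to Phb (0.90) and Sema4a (0.88), and Tnf to Nup188 (0.93), Pigb (0.92) and Miga2 (0.92). Csf2 was closest to Mtmr7 (0.93), Gm26586 (0.85) and Gm2237 (0.84). Xcl1 was closest to Tbl3 (0.92), to the overlapping Gm20743 (0.92) and to Gm42921 (0.92). Ccl3 was closest to Zfp169 (0.91), Ccl4 (0.89) and Hist1h2ac (0.88), so its cluster neighbour was the one member that ranked among the closest genes of another. Ccl4 was closest to 2610507B11Rik (0.96), Stx6 (0.93) and Cstf1 (0.93), and Ccl5 to Slc16a3 (0.96), Adam8 (0.93) and Unc119b (0.91). Fasl was closest to Zfp41 (0.90), Gm30698 (0.87) and Gm16341 (0.85), and Tnfsf10 to Ehd3 (0.89), Crebl2 (0.88) and Stag1 (0.87).

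Of 13 receptor genes for these ligands, all tested, 0 were called between genotypes, beside 0% to 0.0828% of all genes. Between the cell types over genotypes 1, Xcr1, was called, beside 4.47% of all genes. Xcr1, the receptor of XCL1, was at 19.9 ± 16.4 to 37.4 ± 6.27 CPM in the CD8 groups and at 0 to 0.75 ± 1.06 CPM in the NK groups (SD, n = 2; FDR 0.0072 over genotypes, edgeR). Ifngr1, a chain of the interferon-γ receptor, had the highest level of the list, with 2894 ± 159 CPM in NK WT. At an unadjusted p under 0.05 there were 5 receptors in CD8 KO and 6 in CD8 KE, 1 and 2 of them higher, beside 4.82% and 5.56% of all genes, and 1 in NK KO and 5 in NK KE, beside 6.3% and 6.01% of all genes. Ccr1, Csf2rb and Csf2rb2, which myeloid cells also carry, were at 193 ± 119, 31.5 ± 30.1 and 34.7 ± 40.6 CPM in NK WT and at or below 0.12 CPM in NK KE (named after their values were seen). The myeloid markers were also higher in NK WT than in NK KE, and their part in these receptor levels was not tested.

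Among 40 other ligand genes, of which 31 were tested, 0 were called between genotypes, beside 0% to 0.0828% of all genes. At an unadjusted p under 0.05 there were 7 in NK KO and 9 in NK KE against WT, 3 of them higher in each, beside 6.3% and 6.01% of all genes. There were 3 in CD8 KO and 5 in CD8 KE, beside 4.82% and 5.56%. The list medians were -1.48 and -1.51 in NK KO and KE, beside -0.01 and 0 over all genes, and 0.06 and 0.09 in CD8 KO and KE, beside 0. Over genotypes, Ltb, Csf1 and Ccl1 were called lower in NK than in CD8 cells, where 4.47% of all genes were called. Ltb, which encodes the membrane partner of lymphotoxin, was at 180 ± 50.0 to 470 ± 27.3 CPM in the NK groups and 823 ± 26.2 to 1237 ± 63.6 CPM in the CD8 groups (log2 difference -1.73, FDR 3.79e-04, edgeR). Csf1, the growth factor of macrophages, was at 15.5 ± 6.45 to 73.2 ± 0.10 CPM in CD8 and at or below 2.20 ± 2.57 CPM in NK (FDR 0.0020, edgeR). Ccl1, a ligand of CCR8, reached 415 ± 538 CPM in CD8 KE and lay below 0.20 CPM in every NK group (FDR 0.0059, edgeR). Spp1, the other of the most abundant genes of the list, was at 951 ± 414 CPM in NK WT, 233 ± 96.6 in NK KO and 276 ± 51.5 in NK KE without a call. The myeloid markers were also highest in NK WT, at 16357 and 13790 CPM. They were at 7195 and 24.2 CPM in NK KO and at 55.8 and 401 CPM in NK KE. Their part in the Spp1 levels was not tested.

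Of 26 genes known to control the production of the members, such as cytokine receptor chains, transcription factors and RNA-binding proteins, 26 were tested. Between genotypes 0 were called, beside 0% to 0.0828% of all genes. Between the cell types 1 was called over genotypes, beside 4.47% of all genes. This was Zfp36l2, which encodes an RNA-binding protein that destabilises AU-rich transcripts (log2 difference 1.15 higher in NK, FDR 0.0293, edgeR). Il2rb, a receptor chain shared by IL-2 and IL-15, had the highest level of the list, with 3377 ± 228 CPM in NK WT and 1669 ± 332 CPM in CD8 WT, ahead of Il2rg with 694 ± 41.2 and 716 ± 6.59 CPM. The list medians against WT were -0.12 and -0.11 in NK KO and KE and 0.25 and 0.06 in CD8 KO and KE, beside medians over all genes of -0.01 in NK KO and 0 in the others.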

How the data were processed

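RNA of 12 libraries, 2 per cell type and genotype, was amplified by Smart-seq2 from polyadenylated RNA of 300 sorted cells each. The authors trimmed the single-end reads with Trimmomatic, aligned them with STAR to mm10 (GRCm38) and counted uniquely aligned reads in exons with summarizeOverlaps. Raw counts per gene were deposited, neither normalised nor pooled. Multiply aligned reads were not counted, and no molecular identifiers are stated, so floors cover counting error only, whereas the 95% intervals include the spread between libraries. Groups and replicate numbers were taken from the sample titles.

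The tests used edgeR 4.0.16 under R 4.3.3 (TMM, robust quasi-likelihood F-test, two-sided), with 1 mean per group over all 12 libraries and a mean normalised count of at least 10. P-values were adjusted by Benjamini-Hochberg over all 13279 genes tested (FDR), and a gene was called at FDR under 0.05 with a log2 fold change of 1 or more in size. SE is the absolute log2 fold change over the square root of F. Levels are CPM as mean ± SD (n = 2), with a prior count of 2 on the log2 scale. DESeq2 1.42.0, other scalings, no filter, fits to 1 cell type, a replicate block and leaving out libraries were alternatives.

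All 9 members are named with every value. Statistics are given for each member except Csf2, whose fit rests on counts of 0, between the cell types over genotypes and elsewhere where called or with an unadjusted p under 0.05. Other differences that are given, of Ifng, Tnf, Ccl3, Ccl4, Fasl and Tnfsf10 against WT, of Ccl3 and Tnfsf10 in the KE interaction and of Xcl1 between the cell types in KE, were chosen after their values were seen. List genes are named where called, and otherwise the 2 with the highest level. The 3 most similar genes of each member were ranked by Pearson r. A receptor gene and a similar gene that these rules select are not reported here. The members and lists were chosen with earlier results of these data known. Annotation is GENCODE vM21 (GRCm38) and gene names came from the reference table, which had no symbol for 153 identifiers.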

Additional observations from a re-analysis of the deposited data

How the results depend on the processing

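The 12 comparisons gave 0 member calls, except 1 (Xcl1) each in CD8 KE against WT, NK against CD8 over genotypes and NK against CD8 in WT. DESeq2 gave 1 call in NK KE against WT (Ccl5), 1 each in CD8 KO against WT, CD8 KO against KE, both interactions and NK against CD8 in KO (Xcl1), and 2 over genotypes (Ifng, Xcl1), where it called 1.15% (CD8 KO against KE) to 11.9% (over genotypes) of all genes. Without a filter on low counts there were 2 calls in CD8 KO against WT, 3 in CD8 KE against WT, 1 each in NK KO against KE, CD8 KO against KE and the KO interaction, 3 in the KE interaction and 3, 4 and 3 in NK against CD8 over genotypes, in KO and in KE. Of all genes this called 0.523% and 0.78% in CD8 KO and KE against WT, 0.405% and 0.346% in NK and CD8 KO against KE, 0.553% and 0.818% in the interactions and 5.19%, 2.21% and 2.1% in the last 3. A fit to the CD8 libraries alone gave 0 in CD8 KE against WT (0 of 12669 genes were called). Leaving out the 3 NK libraries with high myeloid markers, chosen after seeing the data, gave 0 there (0 of 12971 genes) and 0 over genotypes (309 of 12971 genes). The cause was not tested. RLE factors, library size alone and no minimum fold change left every count of member calls as it was.

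Leaving out 1 library leaves 1 library in a group, and which members were called depended on the library left out, as given above. The log2 fold change of Xcl1 ran from 3.80 to 5.72 in CD8 KE against WT. It ran from 4.26 to 5.08 in NK against CD8 in WT and from 2.13 to 2.78 over genotypes. The sign of Tnf over genotypes turned in 6 of 12 such fits, from -0.68 to 0.47, and that of no other of the 23 fold changes refitted in this way turned. With the replicate number as a block, CD8 KE against WT had 0 member calls (Xcl1 5.13, FDR 0.0623, edgeR), beside 4 of 13279 genes. The other comparisons kept their count, beside 0 to 482 of 13279 genes. Same-numbered libraries did not deviate together (r of -0.0250 to 0.0378 over genes, 15 pairs of groups), and no label ties the numbers to a shared animal or day.

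Csf2 held 0 or 1 count in 8 of 12 libraries, so that a level under the floor of 3 counts was not detectable there at this depth.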
